A study of Homo sapiens with 6 samples.

Results

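Reported markers of melanoma stem or initiating cells, 10 genes in all, were followed in sorted melanosphere cells: ABCB5, NGFR, PROM1, KDM5B, ALDH1A1, ALDH1A3, CD44, MCAM, NES and EPHA2. They were picked by symbol, mapped from the Ensembl identifiers of the deposited table, and make up 10 of its 58395 genes. The study grew M14, an established melanoma cell line, as non-adherent melanospheres, dissociated them mechanically, stained them with an antibody to CD20 and sorted CD20+ and CD20- cells by flow cytometry. Both groups share the line, the sphere culture, the staining and the sort, and each has 3 libraries of polyadenylated RNA, numbered 1 to 3. Nothing in the labels says whether the 3 are separate cultures, so a p-value here weighs a difference against the spread of these libraries, which may be technical. The comparison asks which transcripts differ between the CD20+ and the CD20- fraction of the spheres.

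As background, a melanoma stem-cell or initiating-cell marker is a gene whose product has been used to enrich cells that seed tumours or grow slowly, and CD20 is itself such a marker in melanospheres. The genes work in different ways. CD44, MCAM and EPHA2 are adhesion or signalling receptors at the cell surface, NGFR is a neurotrophin receptor of the neural crest, NES is a filament protein of neural progenitors, ALDH1A1 and ALDH1A3 oxidise retinaldehyde to retinoic acid, KDM5B removes methyl groups from histone H3 lysine 4, PROM1 (CD133) is a membrane protein of progenitors, and ABCB5 is a transporter. A sorted population can differ in such a gene because more of its cells carry the transcript or because each cell carries more, and in bulk RNA fewer cells of a type and less RNA per cell cannot be told apart.

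Of the 10 genes, 4 were expressed at a mean of at least 10 FPKM, 3 at 1 to 10 FPKM, and 3 were close to 0. FPKM here is fragments per kilobase of exon, scaled to a library size implied by the deposited values. That size is not the library's fragment count. MCAM and EPHA2 were the tested members with the largest differences, 1.42 and 1.397 times as high on average in CD20+ cells. MCAM was the one tested member whose groups did not overlap. No member passed the test in the fit without a replicate block. MCAM and EPHA2 passed when the replicate number was taken into account and only genes averaging 10 FPKM or more were tested. Both log2 changes were near 0 when libraries were scaled to their FPKM totals, where the median of all tested genes was -0.41. There, 8.27% of tested genes had a higher change than MCAM and 8.90% than EPHA2, against 5.57% and 6.55% as deposited.

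The promoters of MCAM and EPHA2 are shown because these 2 members had the largest differences, and that of NES because it had the opposite pattern between replicates. They are the bases before the transcription start in the RefSeq annotation of GRCh38.p14, up to 250, without the bases in exons that GENCODE release 29 gives to the same gene, read 5' to 3' on the gene's strand. Capitals mark the GC box GGGCGG or its reverse complement CCGCCC, the site that SP1-type factors recognise. The MCAM stretch is chr11:119317131-119317380 (minus strand), the EPHA2 stretch is chr1:16156088-16156319 (minus strand), and the NES stretch is chr1:156677408-156677657 (minus strand). The MCAM stretch lies inside the longest extent that GENCODE gives the gene and outside its exons.
MCAM: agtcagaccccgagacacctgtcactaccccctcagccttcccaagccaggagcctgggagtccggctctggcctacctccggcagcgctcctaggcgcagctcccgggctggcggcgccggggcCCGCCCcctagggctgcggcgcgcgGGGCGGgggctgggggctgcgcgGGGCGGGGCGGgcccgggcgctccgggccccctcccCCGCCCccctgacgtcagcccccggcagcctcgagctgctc
EPHA2: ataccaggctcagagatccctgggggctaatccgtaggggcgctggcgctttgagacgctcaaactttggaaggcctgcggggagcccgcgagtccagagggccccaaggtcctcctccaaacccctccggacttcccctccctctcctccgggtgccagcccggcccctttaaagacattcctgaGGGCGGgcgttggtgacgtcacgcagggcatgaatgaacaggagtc
NES: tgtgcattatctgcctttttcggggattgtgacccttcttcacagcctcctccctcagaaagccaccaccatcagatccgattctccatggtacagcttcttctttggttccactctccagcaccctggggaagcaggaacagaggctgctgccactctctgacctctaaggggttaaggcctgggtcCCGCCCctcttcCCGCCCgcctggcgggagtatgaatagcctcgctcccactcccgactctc
Counted on both strands, with overlapping matches allowed, the 250-base windows held 5 GC boxes for MCAM, 1 for EPHA2 and 2 for NES. RefSeq windows were found for 8 of the 10 members, and 7 of these 8 had at least 1 GC box in some window. The box was in 42.6% of 35116 promoter windows of the same length. Counts of members take any window of a gene, and PROM1 had more than 1, so these counts and percentages are not like for like. The GC-box windows of KDM5B, CD44, ALDH1A3 and PROM1 lay wholly within exons of their own gene. Such bases are left out of the stretches shown. The MCAM window was 79.6% G or C, the EPHA2 window 63.2% and the NES window 58%, where the median of all windows was 58%. The TATA box, the E-box and the M-box (the form of E-box bound by the melanocyte factor MITF) were in none of the members' windows. The TATA box was searched as TATAAA and was in 10.7% of all windows. For the E-box the letters were CACGTG, found in 6.35% of all, and for the M-box CATGTG, found in 9.42%. TGACTCA, the AP-1 motif, was in a window of PROM1 alone among the members (4.203% of all windows), and GGAATG, the TEAD motif, in that of EPHA2 alone (11.9% of all windows). CCAAT, the NF-Y motif, was in windows of 3 of the 8 members and in 32.0% of all windows. These are matches of letters and were not tied to any measured value.

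The libraries held 15651183 to 17915942 fragments. The deposited scaling implied other sizes, from 15107847 for CD20+ replicate 1 (17479736 fragments) to 19782432 for CD20- replicate 3 (17915942 fragments). MS4A1, which encodes the sorted antigen, was at 1.16 ± 0.170 FPKM in CD20+ and 0.297 ± 0.0940 FPKM in CD20- libraries (SD, n = 3), with no overlap (two-sided exact permutation p = 0.1, below which 3 against 3 cannot go). Transcripts of the mitochondrial genome took 16.6 ± 4.39% of fragments in CD20+ and 5.01 ± 0.739% in CD20- libraries, and cytosolic ribosomal protein genes 3.67 ± 0.891% and 7.40 ± 0.161% (SD, n = 3; exact permutation p = 0.1 for each). These shares moved with the groups, and their part in the members' differences was not tested beyond the scalings given further on. The label was checked against melanocytic markers: 3 of 10 (PMEL, MITF and GPR143) had a mean of at least 1 FPKM, while the highest library had 0.0717 FPKM of SOX10, 0.262 of MLANA and 0.0207 of TYR, 3 defining markers. Of 6 simple epithelial markers, KRT8, KRT18, KRT19 and CLDN4 averaged 212, 187, 85.2 and 28.8 FPKM. EPCAM averaged 3.77 FPKM and CDH1 (E-cadherin) only 0.0695 FPKM, so the epithelial markers did not share a level. Of 8 leukocyte markers none reached a mean of 1 FPKM, and PTPRC, the common leukocyte antigen, did not exceed 0.0116 FPKM.

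MCAM (CD146, melanoma cell adhesion molecule; ENSG00000076706, GRCh38 chromosome 11, 119308529 to 119321521, minus strand) is an immunoglobulin-family receptor linked to melanoma spread and is also made by endothelial cells and pericytes. It measured 25.2, 19.98 and 21.6 FPKM in CD20+ replicates 1, 2 and 3 and 18.5, 15.6 and 12.9 FPKM in the CD20- ones. Each CD20+ library was above each CD20- one, and the pair ratios were 1.36, 1.28 and 1.67. The means were 22.3 ± 2.67 and 15.7 ± 2.83 FPKM (SD, n = 3), from 1893 to 2826 fragments a library. On the log2(FPKM + 1) scale, on which fold changes of low genes are understated, the change was 0.49 ± 0.17 (SE), with a 95% interval of 0.08 to 0.90 and a limma p of 0.0253 that did not survive Benjamini-Hochberg adjustment over 13155 genes (adjusted p = 0.485). That fit, without a block, called 1 gene, or 0.0076% of those tested, and 1210 at an unadjusted p under 0.05. None of the 7 tested members was among those called.

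With the replicate number as a block, limma gave MCAM a change of 0.49 ± 0.14 (SE) and an adjusted p of 0.0631 over the same genes. In that fit 3.19% of all tested genes were called higher in CD20+ cells, and 0 of the 7 members were. Among the 4503 genes averaging 10 FPKM or more, 9.93% were called higher with the block, and of the 4 members there, 2 were called: MCAM with an adjusted p of 0.0105 and EPHA2 with 0.0281 (limma, Benjamini-Hochberg). In that fit 93.4% of genes took their spread wholly from other genes of similar level. Without both libraries of replicate 3, 64 genes were called and the adjusted p of MCAM was 0.673 and that of EPHA2 0.721; without replicate 2, EPHA2 missed the threshold at 0.0632. A lack of overlap in the higher direction was seen in 8.87% of all tested genes and in 1 of 7 members, MCAM.

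EPHA2 (ENSG00000142627, chromosome 1, 16124337 to 16156087, minus strand) is a receptor tyrosine kinase for ephrin-A ligands. It stood at 14.5, 10.1 and 11.03 FPKM in the CD20+ libraries and at 11.4, 7.17 and 6.94 FPKM in the CD20- ones. The CD20- replicate 1 lay above the CD20+ replicates 2 and 3, so the groups overlapped, although the CD20+ library was the higher in each pair (ratios 1.27, 1.41 and 1.59). The means were 11.9 ± 2.32 and 8.50 ± 2.51 FPKM (SD, n = 3), and the log2 change was 0.46 ± 0.22 (SE; limma adjusted p = 0.593 without the block and 0.0696 with it). Its 95% interval without the block ran from -0.07 to 0.98.

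CD44 (ENSG00000026508, chromosome 11, 35138870 to 35232402, plus strand), the hyaluronan receptor, had the highest level of the 10 in FPKM, a scale that is per length. Its libraries measured 35.7, 41.0 and 40.1 FPKM in CD20+ and 30.6, 36.3 and 37.7 FPKM in CD20- cells. Pair ratios were 1.17, 1.13 and 1.06, while the groups overlapped because CD20+ replicate 1 was below CD20- replicates 2 and 3. The means were 38.9 ± 2.86 and 34.9 ± 3.78 FPKM (SD, n = 3), and the log2 change was 0.16 ± 0.15 (SE; limma adjusted p = 0.779), with a 95% interval of -0.20 to 0.51.

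**Figure D1:**
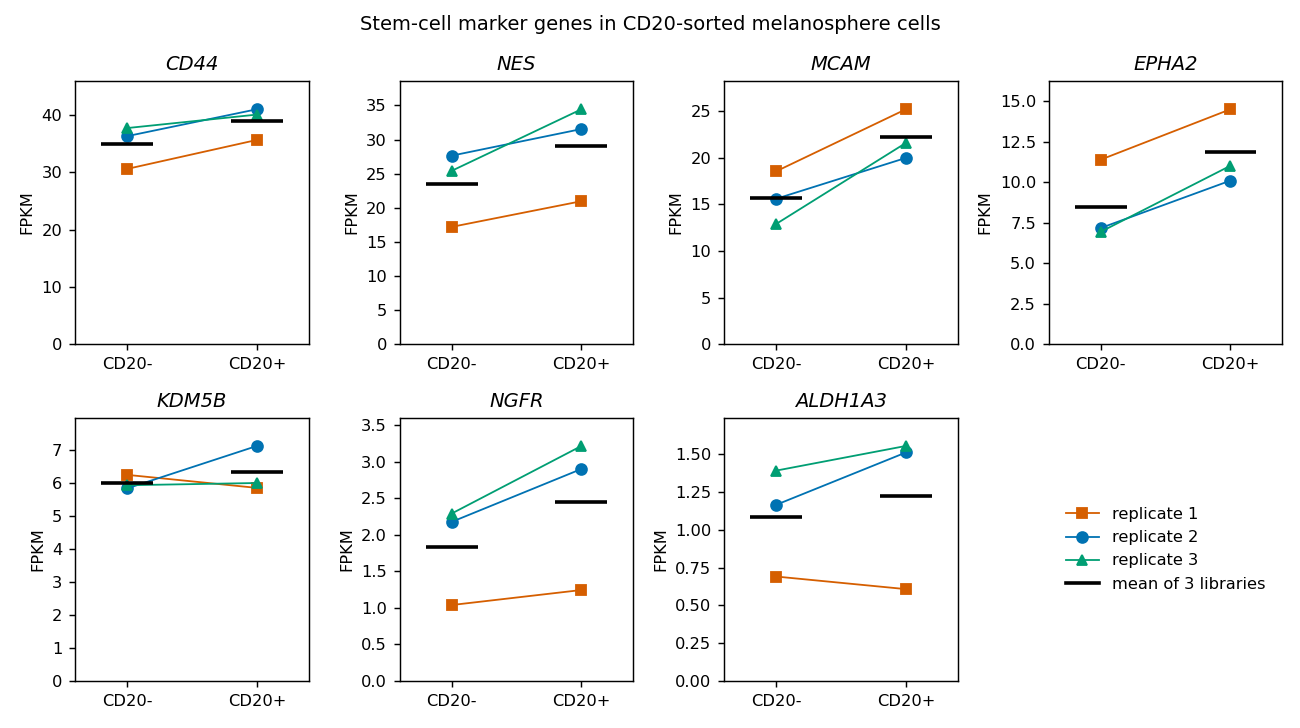
FPKM (y axis, linear from 0) of the 7 tested members in CD20- and CD20+ libraries, with lines joining libraries of the same replicate number and black bars for means of 3. MCAM is the only panel in which the lowest CD20+ point (19.98) is above the highest CD20- point (18.5), and in NGFR and ALDH1A3 both replicate 1 points lie below the rest.

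NES encodes nestin (ENSG00000132688, chromosome 1, 156668763 to 156677397, minus strand), an intermediate filament protein of dividing progenitors. Its FPKM were 20.96, 31.5 and 34.4 in CD20+ and 17.2, 27.6 and 25.4 in CD20- libraries. Replicate 1 was the lowest in both groups, and its CD20+ library was below 2 of the CD20- ones. Within pairs the ratios were 1.22, 1.14 and 1.36. Means of 28.98 ± 7.09 and 23.4 ± 5.50 FPKM (SD, n = 3) gave a log2 change of 0.29 ± 0.25 (SE; limma adjusted p = 0.753, and 0.253 with the block). Leaving out 1 library moved the change to between 0.095 (without CD20- replicate 1) and 0.50 (without CD20+ replicate 1).

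NGFR (CD271, the low-affinity neurotrophin receptor; ENSG00000064300, chromosome 17, 49495293 to 49515017, plus strand) was measured at 1.24, 2.90 and 3.22 FPKM in CD20+ and 1.04, 2.18 and 2.29 FPKM in CD20- libraries. Both replicate 1 libraries were far below the other 4, and the CD20+ library was higher in each pair by ratios of 1.20, 1.33 and 1.404. Its 78 to 211 fragments a library gave means of 2.45 ± 1.06 and 1.83 ± 0.692 FPKM (SD, n = 3) and a log2 change of 0.26 ± 0.30 (SE; limma adjusted p = 0.819, and 0.303 with the block). Leaving out 1 library moved it to between 0.043 and 0.55, the extremes being again without CD20- or CD20+ replicate 1.

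KDM5B (JARID1B; ENSG00000117139, chromosome 1, 202724495 to 202809470, minus strand), reported in slow-cycling melanoma cells, was nearly level. Its values were 5.85, 7.12 and 5.9997 FPKM in CD20+ and 6.25, 5.83 and 5.93 FPKM in CD20- libraries, with the highest value in CD20+ replicate 2 and full overlap otherwise. The log2 change was 0.06 ± 0.13 (SE; limma adjusted p = 0.916), with a 95% interval of -0.24 to 0.36.

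ALDH1A3 (ENSG00000184254, chromosome 15, 100877714 to 100916626, plus strand) was the one expressed member of the ALDH1A pair. It measured 0.608, 1.51 and 1.56 FPKM in CD20+ and 0.691, 1.17 and 1.39 FPKM in CD20- libraries, from 53 to 159 fragments. Pair ratios were 0.879, 1.30 and 1.117, so the pairs did not share a direction, and the log2 change was 0.08 ± 0.24 (SE; limma adjusted p = 0.947).

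The 3 remaining genes were below the level tested. ALDH1A1 (ENSG00000165092, chromosome 9, 72900662 to 73080442, minus strand) had 1, 3 and 0 fragments in CD20+ and 2, 0 and 4 in CD20- libraries (two-sided exact permutation test on FPKM, p = 0.8). PROM1 (ENSG00000007062, chromosome 4, 15963076 to 16084378, minus strand) had 4, 1 and 3 fragments in the CD20+ and 0 in each CD20- library (exact permutation p = 0.1, the smallest possible). A count of 0 in 1 library allows up to 3 fragments, 0.0204 to 0.0267 FPKM for PROM1. Library by library, the 4, 1 and 3 fragments in CD20+ are close to that limit. The limit does not apply to the pooled 8 fragments against 0, a difference that rests on few fragments. ABCB5 (ENSG00000004846, chromosome 7, 20615207 to 20777038, plus strand) had 1 fragment in all, in CD20- replicate 2 (exact permutation p = 1). These limits cover counting error only, and no fold is given for the 3 genes.

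In order of mean FPKM the members ran CD44, NES, MCAM, EPHA2, KDM5B, NGFR, ALDH1A3, ALDH1A1, PROM1 and ABCB5. Of the genes tested, 8.75% had a higher mean than CD44, 13.3% than NES, 18.8% than MCAM, 33.7% than EPHA2, 49.4% than KDM5B, 80.5% than NGFR and 96.4% than ALDH1A3. Ranges over the 6 libraries did not overlap between KDM5B and NGFR, or between ALDH1A3 and ALDH1A1, and overlapped between all other neighbours. Within a library the order was firmer for the tested neighbours, since each stood above the next in 6 of 6 libraries, except that NES was above MCAM in 4 of 6 and below it in both replicate 1 libraries.

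Some members differed more between replicates than between CD20 groups. Both replicate 1 libraries were below the other 4 for CD44, NES, NGFR and ALDH1A3 (4 of 7 tested members, against 20.8% of all tested genes). They were above the other 4 for EPHA2 (1 of 7, against 23.5% of all). Relative to the mean of replicates 2 and 3, replicate 1 was at 0.635 in CD20+ and 0.648 in CD20- cells for NES, 0.407 and 0.465 for NGFR, and 0.396 and 0.540 for ALDH1A3. The same ratios were above 1 for MCAM (1.21 and 1.30) and EPHA2 (1.37 and 1.61).

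Within the CD20 groups, 2 sets of members ran opposite to each other. With group means removed, the correlation over the 6 libraries was 0.98 between NES and NGFR, 0.99 between NGFR and ALDH1A3, 0.92 between CD44 and NES and 0.92 between MCAM and EPHA2, while it was -0.99 between CD44 and EPHA2 and -0.93 between NES and EPHA2. Without that step the correlations across the 2 sets were weaker. For EPHA2 they were -0.21 with CD44, -0.32 with NES, -0.42 with NGFR and -0.57 with ALDH1A3. For MCAM they were 0.039 with CD44, -0.035 with NES, -0.17 with NGFR and -0.38 with ALDH1A3. These values describe 6 libraries that share a replicate contrast, and replicate 1 weighs heavily in all of them. The labels do not say what distinguishes replicate 1.

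**Figure D2:**
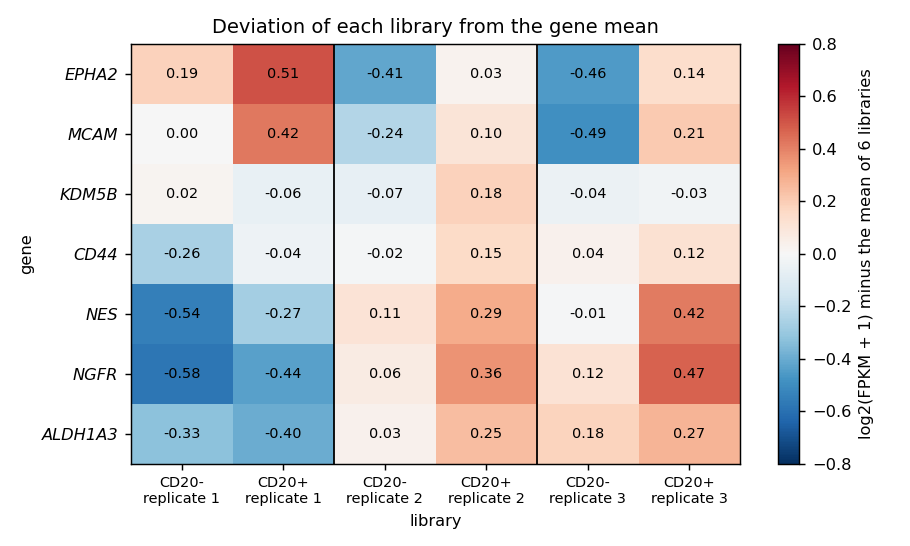
Deviation of each library (columns, ordered by replicate number) from the mean of 6 libraries, in log2(FPKM + 1), for the 7 tested members (rows), with red above and blue below the mean. In replicate 1 NES and NGFR are at or below -0.27 in both groups and EPHA2 is at 0.19 and 0.51, the opposite sign.

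Of the 7 tested members, 5 (CD44, NES, MCAM, EPHA2 and NGFR) were higher in CD20+ cells in 3 of 3 pairs, where 21.8% of all tested genes were. This count depended on how libraries were scaled. The deposited scaling put the median change of all tested genes at 0.00025, and that of the 7 members at 0.26. Scaled to the FPKM total, in which mitochondrial transcripts weigh more in CD20+ libraries, the median of all genes was -0.41 and that of the members -0.17, and none of the 7 was higher in 3 pairs and 2 were lower, against 1.89% and 63.6% of all tested genes.

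Without mitochondrial genes in the total, 5 of 7 were higher in 3 pairs against 30.8% of all tested genes, the members' median was 0.34 and that of all genes 0.087, and 2 members (MCAM and EPHA2) showed no overlap against 12.2% of all tested genes. Scaled to the recovered fragment total, 2 of 7 (MCAM and EPHA2) were higher in 3 pairs against 10.1% of all tested genes, and the median of all genes was -0.15. The change of MCAM was -0.0038 and that of EPHA2 -0.016 under the FPKM total, and the change of KDM5B was -0.38.

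**Figure D3:**
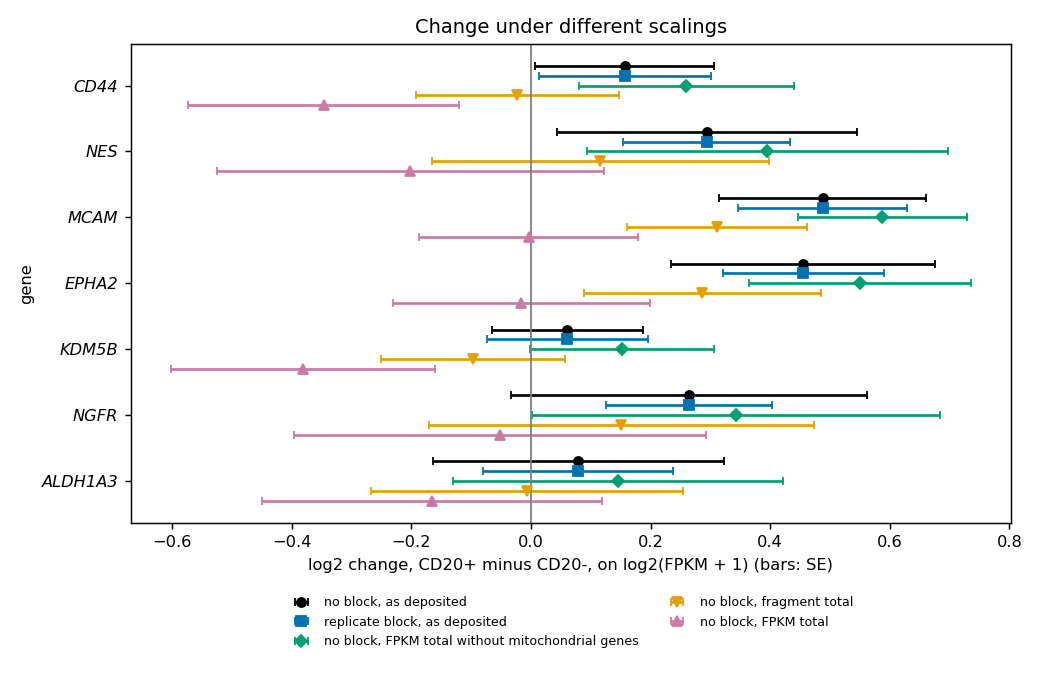
Log2 change on log2(FPKM + 1) (x axis, CD20+ minus CD20-, bars are SE) for the 7 tested members (y axis) without and with the replicate block and under 3 other scalings of the libraries. MCAM and EPHA2 lie farthest to the right in the deposited values (0.49 and 0.46). All 7 are below 0 when libraries are scaled to the FPKM total, where the median of all tested genes is -0.41.

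Genes acting with the members were read from 10 lists, and no gene of these lists passed in the limma fit without a block. With the block, every call of a higher gene at the minimum of 1 FPKM, those of the lists included, was lost when both libraries of replicate 2 were left out (1 gene called, lower). For adhesion, 7 of 10 MCAM ligands and relatives were tested, and 2 rose in CD20+ cells with the block, against 3.19% of all tested genes. The list's median change was 0.44 against 0.00025 for all genes as deposited, and -0.068 against -0.41 under the FPKM total. All lists were chosen with earlier results of these data known, so their medians are descriptions only. L1CAM, a neural adhesion molecule, rose from 35.9 ± 4.12 to 59.0 ± 7.36 FPKM (SD, n = 3; limma adjusted p = 0.0244 with the block and 0.293 without). WNT5A, a secreted ligand reported to bind MCAM, rose from 7.08 ± 1.91 to 10.7 ± 3.13 FPKM (limma adjusted p = 0.0464 with the block and 0.616 without). LGALS3BP, a galectin-3 binding protein, had a change of 0.63 ± 0.21 (SE) that did not pass (limma adjusted p = 0.134 with the block), and LGALS1, the most abundant of the list, had a change of -0.46 ± 0.34 (SE).

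MCAM is also a pericyte marker, so other such markers were read beside it. The summed level of 8 fibroblast and pericyte genes was 104 to 143 FPKM in CD20+ and 63.0 to 85.9 FPKM in CD20- libraries. Most of that sum came from the collagens COL3A1 and COL1A1, which averaged 63.5 and 31.6 FPKM over the 6 libraries. Of the 3 tested, COL3A1, a fibrillar collagen, rose with the block from 45.6 ± 15.2 to 81.4 ± 24.8 FPKM (SD, n = 3; limma adjusted p = 0.0115), and PDGFRB, the pericyte growth factor receptor, from 3.70 ± 3.33 to 6.43 ± 6.07 FPKM (limma adjusted p = 0.0286). Neither passed without the block, with which 3.19% of all tested genes were called higher (9.93% at 10 FPKM). The groups overlapped for both genes, and PDGFRB ran from 1.70 to 13.4 FPKM over the libraries. COL1A1, the third, had 37.4 ± 4.03 and 25.7 ± 1.58 FPKM in CD20+ and CD20- cells, with no overlap (limma adjusted p = 0.0625 with the block, and 0.0102 with it at 10 FPKM). Scaled to the FPKM total, the log2 changes were smaller: 0.32 for COL3A1 (0.83 as deposited), 0.17 for PDGFRB (0.58) and 0.019 for COL1A1 (0.52). The median of all tested genes was -0.41 under that scaling. The other 5 were low: COL1A2, DCN, LUM and PDGFRA averaged at most 0.0135 FPKM, and RGS5, a pericyte gene, measured 0.356 ± 0.131 and 0.402 ± 0.0494 FPKM. The summed level of 7 endothelial markers was 6.39 to 7.31 FPKM in CD20+ libraries and 4.84 to 6.40 in the others. Only ERG was tested, and it did not pass. Below that level, CDH5 (VE-cadherin) had 0.505 ± 0.0860 and 0.190 ± 0.0109 FPKM with no overlap, PECAM1 had 1.023 ± 0.161 and 0.821 ± 0.234 FPKM, VWF, TEK and CLDN5 averaged 0.0188 to 0.108 FPKM with overlapping groups, and KDR, the vascular VEGF receptor, was at 0. The part of these genes in the MCAM difference was not tested.

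For EPHA2, 7 of 18 ligand and receptor genes were tested and 0 passed in either fit, with a median change of 0.12. EPHB3 had a change of 0.39 ± 0.17 (SE) and EPHB4 of 0.36 ± 0.17 (SE), while EFNA1, a main ligand of EPHA2, had one of 0.06 ± 0.19 (SE). EPHA3, EPHA4, EPHA7, EPHB1 and EPHB6 were listed at 0. For these and other genes listed at 0, whether the transcript was absent or not counted was not tested. For CD44, 10 of 16 hyaluronan synthases, hyaluronidases, ligands and cytoskeletal partners were tested, 0 passed in either fit and the median change was 0.19. HAS3, a hyaluronan synthase, measured 1.87 ± 0.702 and 1.07 ± 0.227 FPKM in CD20+ and CD20- cells (SD, n = 3), and EZR, which links CD44 to actin, 66.5 ± 6.30 and 54.6 ± 0.307 FPKM. Neither passed the limma test with the block (adjusted p = 0.171 and 0.339).

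The aldehyde dehydrogenases and the retinoid pathway each had 1 gene that rose with the block, where 3.19% of all tested genes did. Calls in lists this short are not read as results about the lists. Of 17 further aldehyde dehydrogenases 13 were tested, and ALDH16A1 rose from 6.56 ± 1.06 to 10.4 ± 2.95 FPKM (SD, n = 3; limma adjusted p = 0.0493 with the block and 0.496 without). Of 16 retinoid genes 7 were tested, and STRA6, the cell-surface receptor for retinol-binding protein, rose from 4.13 ± 0.203 to 7.09 ± 1.24 FPKM (limma adjusted p = 0.0205 with the block and 0.286 without). The other retinoid genes did not share this, and the median change of the list was -0.0064. The receptors RXRB and RXRG, with CRABP1 and DHRS9, were listed at 0. RARG, a retinoic acid receptor, had a change of -0.21 ± 0.22 (SE), and CRABP2, which carries retinoic acid to the nucleus, one of -0.14 ± 0.17 (SE).

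Among the intermediate filament partners of nestin 5 of 9 were tested and 1 rose with the block, against 3.19% of all tested genes. This was PRPH (peripherin), which went from 2.97 ± 0.628 to 4.72 ± 0.795 FPKM (SD, n = 3; limma adjusted p = 0.0417 with the block and 0.452 without). VIM, which copolymerises with nestin, had a change of 0.23 ± 0.20 (SE). Of 12 NGFR ligands and co-receptors 6 were tested and 0 passed in either fit. SORT1, the sortilin co-receptor, measured 7.44 ± 0.326 and 5.49 ± 0.577 FPKM (SD, n = 3; limma adjusted p = 0.121 with the block), and the ligand NTF3 and the receptor NTRK3 were listed at 0.

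All 10 KDM5 relatives and H3K4 enzymes were tested and 0 passed in either fit, with a median change of 0.061. Of 7 prominin and transporter relatives 4 were tested and 0 passed; ABCC1 had a change of 0.30 ± 0.17 (SE), and PROM2 and ABCB1 were listed at 0. Of 18 other reported melanoma-initiating or progenitor markers 6 were tested and 0 passed in either fit. CXCR4, a chemokine receptor, was the most abundant of these at 182 ± 27.8 FPKM in CD20+ and 136 ± 32.9 FPKM in CD20- cells (SD, n = 3; limma adjusted p = 0.624 without and 0.204 with the block). FZD7 and AXL had changes of 0.31 ± 0.18 and 0.34 ± 0.25 (SE), and SOX2 and NANOG were listed at 0. When libraries were scaled to the FPKM total, the changes of the 5 list genes called with the block were smaller: 0.19 for L1CAM (0.70 as deposited), 0.064 for WNT5A (0.52), 0.11 for ALDH16A1 (0.57), 0.22 for STRA6 (0.65) and 0.13 for PRPH (0.53). The median of all tested genes was -0.41 under that scaling.

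**Figure D4:**
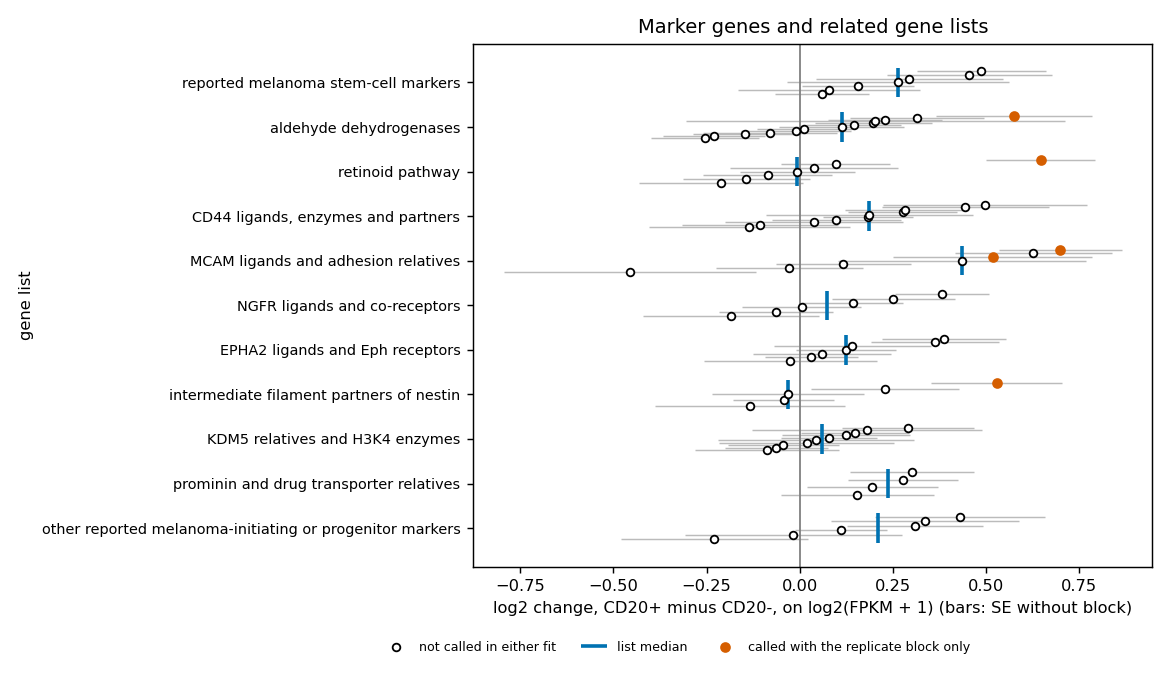
Log2 change on log2(FPKM + 1) (x axis, CD20+ minus CD20-, grey bars are SE without the block) of each tested gene in the 7 tested markers and the 10 related lists (y axis), with a blue bar for each list's median. The 5 filled points, all above 0, are the genes called with the replicate block (ALDH16A1, STRA6, L1CAM, WNT5A and PRPH), and the adhesion list has the highest median (0.44). With the block 3.19% of all tested genes were called higher. The lists were chosen with earlier results of these data known.

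For the 4 members averaging 10 FPKM or more, the protein-coding genes with the most similar pattern over the 6 libraries were taken from 4206 candidates by Pearson correlation of log2(FPKM + 1). They were SLC3A2, ITGA3 and SERPINH1 for MCAM, FKBP9, BMP6 and TRA2A for EPHA2, GAS1, POLE and PTPRF for NES, and CDK2, PFKFB4 and ATP2B4 for CD44, all with correlations of at least 0.97. With 6 libraries such values are common: 148 candidates were over 0.9 for MCAM, 95 for EPHA2, 341 for NES and 156 for CD44.

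The library kit does not mark strand, and whether strand was used in counting is not given in the sources used here, so reads of a gene and of an overlapping antisense gene cannot be told apart. MCAM shares 6.86% of its exon bases with CBL on the other strand, which measured 4.27 to 5.21 FPKM. ALDH1A3 shares 27.5% of its exon bases with ALDH1A3-AS1 (0.0390 to 0.326 FPKM), and NGFR shares 4.87% with NGFR-AS1 (at most 0.276 FPKM) and 22.3% with ENSG00000279036 on the other strand (at most 0.0157 FPKM). PROM1 shares 2.23% of its exon bases with FGFBP2 on the same strand. FGFBP2 measured 0.202 to 0.468 FPKM, and PROM1 at most 0.0356 FPKM. The values of these members are uncertain to that extent.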

How the data were processed

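RNA was sequenced from 3 CD20+ and 3 CD20- melanosphere libraries, grouped by the labels. The submitters' processing notes list the GRCh38 (hg38) build, featureCounts 1.5.0, HISAT2 and DESeq2, per the labels; their settings are not stated in the sources used here. The deposited values, made by the authors, are FPKM. The unit was taken from the values: multiplied by GENCODE release 29 exon lengths, 98.1 to 98.6% of low values (up to 20 reads, tolerance 0.02) were whole reads, and fragments were recovered from them. The 13155 genes averaging 1 FPKM or more were tested on log2(FPKM + 1), pseudocount 1, with limma 3.58.1 (trend and robust prior) and Benjamini-Hochberg adjustment at 0.05, after the script was tested on simulated data. For members under that level a two-sided exact permutation test was used.

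The members and gene lists were chosen with earlier results of these data known. All members were named, and from each list up to 3 genes with the smallest p and every gene called in either fit, not all of which are described. Some genes outside this rule were named too, among them LGALS1, EFNA1 and genes listed at 0. Deviations of same-numbered libraries from their group means correlated at 0.67, 0.24 and 0.51 over genes, each above 0.1, so the numbers were taken as pairs and used as a block in another fit. CD20- replicate 2 with CD20+ replicate 3, and CD20- replicate 3 with CD20+ replicate 2, correlated at 0.43 and 0.40. Both are above the 0.24 of replicate 2 with itself, so the correlations cannot tell how replicates 2 and 3 pair. That pairing rests on the replicate numbers alone, and the labels do not say that equal numbers are pairs. Alternatives covered the pseudocount, filter, scaling, prior, voom on recovered fragments, block and left-out libraries.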

Additional observations from a re-analysis of the deposited data

How the results depend on the processing

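Scaling to the fragment total, the fits with the block and a minimum of 10 FPKM (other than the plain one) and the direction counts under other scalings were chosen after seeing the data. The 1 gene called without the block became 2 with pseudocount 10, 0 with no filter and with voom, 8 with quantile normalization, 1382 with the FPKM total, and 0 to 322 with a library left out, where 322 was without CD20+ replicate 1. With the replicate block (paired fit) 767 genes were called, and 954 at a minimum of 10 FPKM, 3923 with the FPKM total, 942 with that total without mitochondrial genes, 1619 with voom and 1180 with the fragment total. At 10 FPKM with the block the count was 935 with a prior that was not robust and 1194 without mitochondrial genes in the total. Leaving out both libraries of replicate 1, 2 or 3 gave 2141, 1 or 331 genes, so at 1 FPKM nearly all calls with the block were lost without replicate 2, and at 10 FPKM leaving out replicate 1, 2 or 3 gave 1212, 887 or 64. The cause was not tested.

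With or without the block, the log2 changes under the FPKM total were -0.053 for NGFR, -0.38 for KDM5B, -0.17 for ALDH1A3, -0.35 for CD44, -0.0038 for MCAM, -0.20 for NES and -0.016 for EPHA2. Ratios of means there were 0.991, 0.756, 0.84, 0.797, 0.991, 0.90 and 0.965. The median log2 change of all tested genes under that scaling was -0.41. Under the fragment total the changes were -0.097 for KDM5B, -0.0074 for ALDH1A3 and -0.023 for CD44, with ratios of 0.933 for KDM5B and 0.987 for CD44. With a library left out KDM5B ran from -0.016 to 0.11 (ratios 0.987 to 1.09) and ALDH1A3 from -0.064 to 0.30 (ratios 0.958 to 1.42), CD44 from 0.068 to 0.22, NES from 0.095 to 0.50, NGFR from 0.043 to 0.55, MCAM from 0.36 to 0.61 and EPHA2 from 0.31 to 0.66. With the block and without replicate 2, KDM5B was at -0.033. MCAM passed in 8 and EPHA2 in 7 of 31 alternatives, all with the block, and NES in 1, at 10 FPKM with the block and no mitochondrial genes in the total (adjusted p = 0.0310, limma). The other 4 tested members passed in none. The 3 untested members had at most 4 fragments a library.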

Other observations

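PMEL, a melanosome protein, was the one melanocytic marker called with the block, rising from 14.96 ± 5.51 to 26.1 ± 9.96 FPKM in CD20+ cells (SD, n = 3; limma adjusted p = 0.0117 with the block and 0.613 without; the call was lost without replicate 2), while MITF, the melanocyte regulator, had a change of -0.074 ± 0.14 (SE). Thus 1 of 3 tested melanocytic markers was called higher with the block, against 3.19% of all tested genes. Of 6 simple epithelial genes 5 were tested and 0 were called in either fit, with a median change of 0.19.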
